A study of Mus musculus with 15 samples.

Results

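The 7 genes described here, Axin2, Apcdd1, Nkd1, Nkd2, Notum, Sp5 and Axin1, were chosen by name as feedback genes of the canonical Wnt pathway, with Axin1 as the non-inducible paralogue of Axin2. All 7 were among the 36528 genes counted, and 5 passed the filter on low counts that kept 17282 genes for testing. Notum and Sp5 did not pass and are given as read counts. The libraries were made from nests of basal cell carcinoma cut by laser capture from frozen mouse skin. In every group the mice were K14Cre-ER; Ptch1fl/fl; p53fl/fl; Lgr5GFP, so all nests, untreated ones included, came from animals in which a tamoxifen-activated Cre under the keratin 14 promoter can delete Ptch1 and Trp53 in basal epithelium. The first group held 5 libraries of nests remaining after 28 days of vismodegib, an inhibitor of the Hedgehog transducer Smoothened. The second held 5 libraries of untreated nests negative for Ki67, a proliferation antigen, and the third 5 libraries of untreated nests positive for it. Neither the ages of the mice nor the animal behind each library is given, so several libraries of a group may come from 1 animal, and p-values would then be too small. Ki67-negative and Ki67-positive nests may also come from the same animals, a pairing that the tests do not take into account.

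In the canonical Wnt pathway a complex of Axin, Apc, Gsk3 and casein kinase 1 marks beta-catenin for degradation. A Wnt ligand bound to Frizzled and Lrp5 or Lrp6 draws Axin to the membrane through Dishevelled, and the beta-catenin that then accumulates acts with Tcf and Lef factors on target genes. Some of those targets restrain the pathway in turn: Axin2 rebuilds the destruction complex, the Naked proteins Nkd1 and Nkd2 bind Dishevelled, Apcdd1 is a membrane inhibitor of Wnt reception, Notum removes the lipid that a Wnt needs to bind its receptor, and Sp5 is a transcription factor induced by beta-catenin. In skin, Wnt signalling is known for starting hair follicles and for turning resting follicles to growth.

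Libraries held 6.41 to 10.33 M counts in the vismodegib group, 4.89 to 7.16 M in the Ki67-negative group and 4.93 to 8.36 M in the Ki67-positive group. The basal keratinocyte genes Krt5 and Krt14 were present in every library, with Krt5 at 3724.6 CPM (counts for each 1 M counted) or more in vismodegib nests, 1786.2 CPM or more in Ki67-negative nests and 2724.1 CPM or more in Ki67-positive nests. Ptch1, which is also a Hedgehog target, reached 142.4 to 923.0 CPM in vismodegib nests, against 2052.9 to 3726.9 CPM in Ki67-negative and 2445.5 to 3757.6 CPM in Ki67-positive nests. Mki67, the gene for Ki67, was lower in Ki67-negative than in Ki67-positive nests (log2 -1.10, adjusted p = 0.0291 in edgeR). That call was lost in some fits with a library left out, where no gene passed between these groups. In vismodegib nests Mki67 was higher than in Ki67-negative nests (log2 0.92, edgeR adjusted p = 0.00189). It did not pass against Ki67-positive nests (log2 -0.18, edgeR adjusted p = 0.538). Xist exceeded the Y-linked gene Ddx3y in 3 vismodegib, 1 Ki67-negative and 1 Ki67-positive libraries, so the groups differed in their mix of sexes.

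Axin2 and Apcdd1 were several times higher in vismodegib nests than in either untreated group, while Axin1 and Nkd2 did not pass the test in any comparison. Nkd1 was lower in vismodegib than in Ki67-negative nests, though individual libraries overlapped. No feedback gene passed the test between Ki67-negative and Ki67-positive nests. The threshold was an adjusted p of 0.05 in edgeR's quasi-likelihood test over all 17282 genes. Against Ki67-positive nests, 2 of the 5 tested feedback genes rose and 0 fell with vismodegib, where 12.6% of all tested genes rose and 13.4% fell (26% in either direction). Against Ki67-negative nests, 2 of 5 rose and 1 fell, where 15.4% of all genes rose and 16.5% fell (31.9% in either direction). In 2 of the 5, Axin2 and Apcdd1, all 5 vismodegib libraries stood above all 5 of each untreated group, as they did in 10.2% of all genes against Ki67-positive and 10.4% against Ki67-negative nests. Both comparisons use the same 5 vismodegib libraries.

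**Figure D1:**
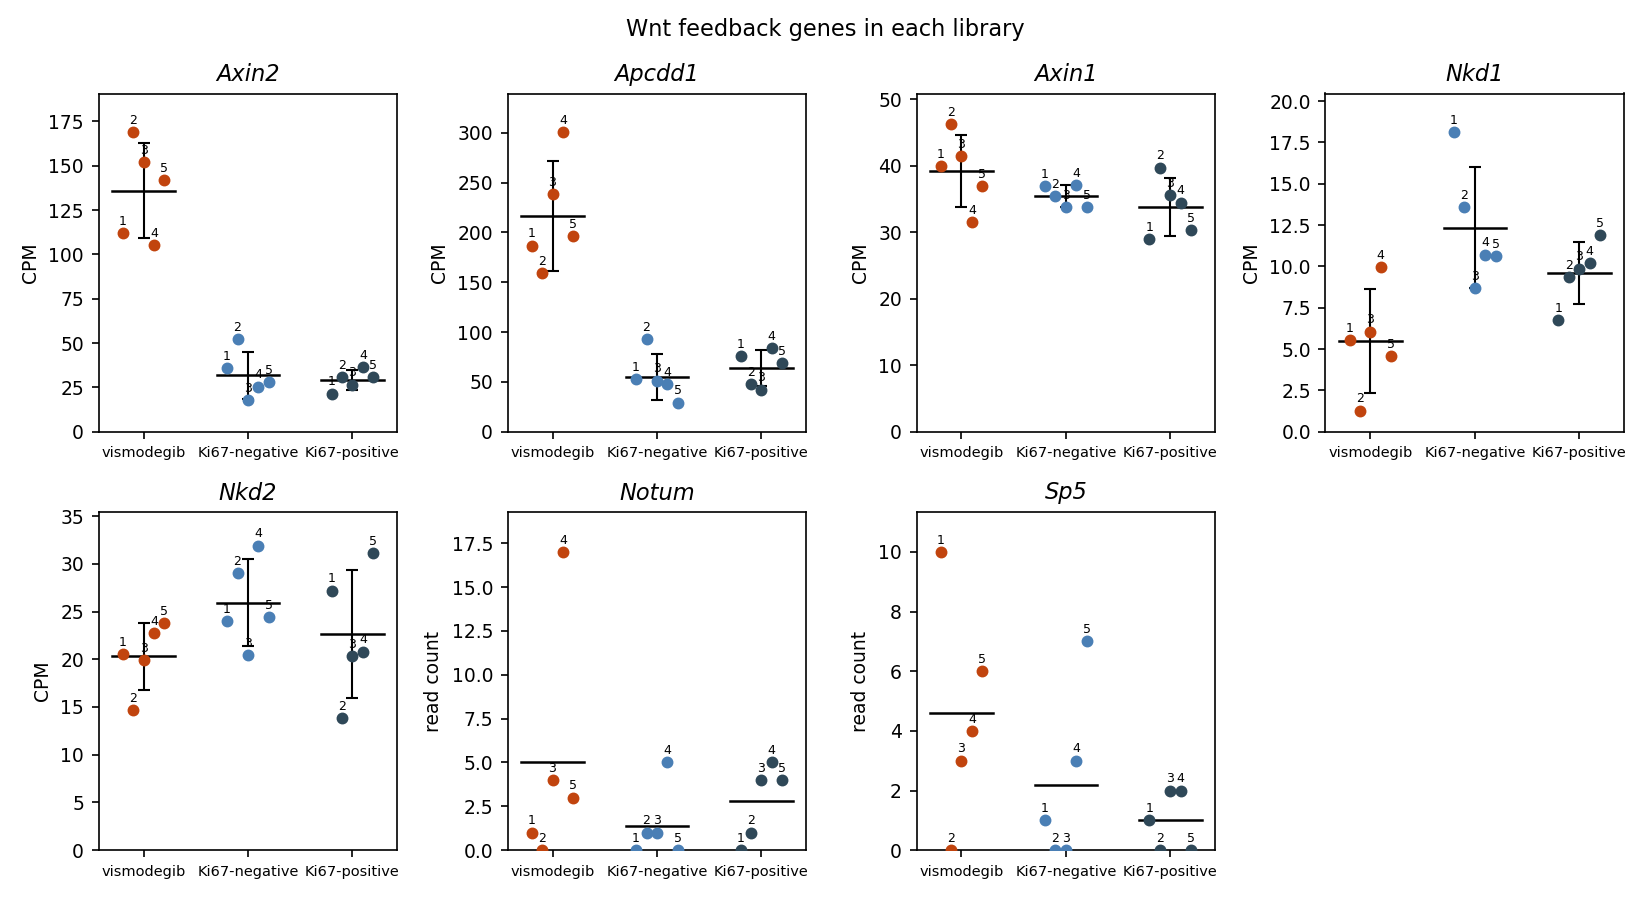
Level of each feedback gene in every library (points numbered by library), in CPM for the 5 genes that passed the filter and in read counts for Notum and Sp5. Horizontal lines are group means and, in the CPM panels, bars are SD over 5 libraries. Axin2 and Apcdd1 lie higher in all 5 vismodegib libraries than in all 10 untreated ones, and the other panels overlap between groups.

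The bases just upstream of the gene starts are shown for Axin2, the most changed member, Nkd1, which moved the other way, and Sp5, the 1 of 4 members in the RefSeq promoter table that holds a searched motif. Each run is the 250 bases before the start in the RefSeq table of the build GRCm38.p6, 5′ to 3′ on the plus strand, which is the strand of each gene, and capitals mark a match. For Axin2 and Nkd1 the table uses a start that lies inside the annotated gene, so these windows do not cover an upstream first exon.
Axin2, chr11:108920099-108920348: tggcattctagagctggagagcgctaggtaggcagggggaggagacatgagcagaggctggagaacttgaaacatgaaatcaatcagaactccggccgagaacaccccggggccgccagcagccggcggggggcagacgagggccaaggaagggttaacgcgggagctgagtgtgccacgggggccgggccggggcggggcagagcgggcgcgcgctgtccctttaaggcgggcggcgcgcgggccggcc
Nkd1, chr8:88527383-88527632: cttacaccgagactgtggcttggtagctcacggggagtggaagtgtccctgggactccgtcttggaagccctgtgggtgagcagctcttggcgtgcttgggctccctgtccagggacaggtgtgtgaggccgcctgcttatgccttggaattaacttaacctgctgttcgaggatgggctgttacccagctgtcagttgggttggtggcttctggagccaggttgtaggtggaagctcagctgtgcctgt
Sp5, chr2:70474673-70474922: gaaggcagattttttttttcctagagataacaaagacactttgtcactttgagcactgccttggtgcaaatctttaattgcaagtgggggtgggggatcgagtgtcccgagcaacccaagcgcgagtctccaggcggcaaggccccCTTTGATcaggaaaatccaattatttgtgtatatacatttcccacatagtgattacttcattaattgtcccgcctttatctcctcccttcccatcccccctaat
The Tcf and Lef motif was searched on both strands as CTTTGAT and CTTTGAA and the Gli motif as GACCACCCA. Of 32851 promoter windows of the same length, 3.21% held CTTTGAT, 4.46% held CTTTGAA, 7.48% held either and 0.225% held GACCACCCA. Sp5 had 1 CTTTGAT from 104 to 98 bases before its start, and the windows of Axin2, Nkd1 and Nkd2 held none of the 3 motifs. No motif result is given for Apcdd1, Notum or Axin1. G and C made up 69.2% of the Axin2 window, 58.4% of that of Nkd1 and 46.0% of that of Sp5.

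Axin2 is the scaffold of the destruction complex whose transcription beta-catenin induces. The gene (identifier 12006) lies on chromosome 11 from 108917828 to 108950783 in the build GRCm38. Its level in vismodegib libraries 1 to 5 was 111.8, 169.0, 152.1, 105.1 and 141.8 CPM. In Ki67-negative libraries it was 35.8, 52.1, 17.6, 25.4 and 27.8 CPM, and in Ki67-positive libraries 21.5, 30.9, 26.5, 36.2 and 30.9 CPM. The lowest vismodegib library thus stood above the highest untreated library, which was Ki67-negative library 2. Means were 136.0 ± 27.0 CPM in vismodegib, 31.7 ± 13.1 CPM in Ki67-negative and 29.2 ± 5.52 CPM in Ki67-positive nests (SD, n = 5 each). The fitted difference was 4.65-fold against Ki67-positive nests (log2 2.22, SE 0.241, 95% interval 1.71 to 2.72, edgeR adjusted p = 3.24e-06) and 4.27-fold against Ki67-negative nests (log2 2.09, SE 0.24, interval 1.59 to 2.6, adjusted p = 4.95e-06). Between Ki67-negative and Ki67-positive nests the log2 difference was 0.12, with an interval of -0.37 to 0.62 (edgeR adjusted p = 0.954). Axin2 shares exon sequence with an antisense gene, Gm11670, and since the use of strand in counting is not given, reads of the pair cannot be told apart. The tissue was bulk RNA, so a difference in the number of cells of a type and a difference in RNA per cell cannot be told apart for any gene here.

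Vismodegib libraries 1 and 5 had the lowest Ptch1 of their group, at 147.5 and 142.4 CPM, and the other 3 libraries had at least 664 CPM. Their Axin2, at 111.8 and 141.8 CPM, lay within the 105.1 to 169.0 CPM spanned by those 3 libraries. The Hedgehog target Gli1 was also lowest in libraries 1 and 5, at 28.8 and 21.0 CPM. It stood at 126.0, 112.4 and 89.6 CPM in libraries 2, 3 and 4. Ptch1 is itself the gene that Cre can delete in these mice, and the split was made after the values were seen. The relation of Axin2 to the remaining Hedgehog activity was not tested.

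Apcdd1 encodes a membrane glycoprotein that binds Wnt and Lrp5 and lowers signalling, and its human orthologue is mutated in a hereditary loss of hair. The gene (identifier 494504) lies on chromosome 18 from 62922327 to 62953815. Its level was 186.5, 158.9, 238.6, 300.6 and 196.4 CPM in vismodegib libraries 1 to 5. It was 52.4, 92.8, 51.3, 47.6 and 29.2 CPM in Ki67-negative libraries and 75.5, 47.4, 42.1, 84.0 and 68.4 CPM in Ki67-positive libraries. As for Axin2, all 5 vismodegib libraries stood above all 10 untreated ones, but the order within the group differed: library 4 was highest for Apcdd1 and lowest for Axin2, and library 2 the reverse. Apcdd1 averaged 216.2 ± 55.2 CPM in vismodegib, 54.6 ± 23.3 CPM in Ki67-negative and 63.5 ± 18.1 CPM in Ki67-positive nests (SD, n = 5 each). It rose 3.41-fold against Ki67-positive nests (log2 1.77, SE 0.268, interval 1.2 to 2.33, edgeR adjusted p = 0.000101) and 3.95-fold against Ki67-negative nests (log2 1.98, SE 0.27, interval 1.42 to 2.55, adjusted p = 3.19e-05). Across the 15 libraries the log2 CPM of Axin2 and Apcdd1 had a Pearson r of 0.89, a value that includes the step between groups. The r of their deviations from group means was 0.27, and -0.17 without Ki67-negative library 2. All feedback genes in a library share its depth and its scaling.

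Axin1 performs the same scaffold function as Axin2 and is known to be expressed without need of a Wnt signal. The gene (identifier 12005) lies on chromosome 17 from 26131217 to 26195811. It stood at 39.9, 46.2, 41.4, 31.5 and 36.9 CPM in vismodegib libraries. It stood at 36.9, 35.4, 33.7, 37.1 and 33.7 CPM in Ki67-negative and at 28.9, 39.7, 35.5, 34.4 and 30.3 CPM in Ki67-positive libraries. The 3 groups overlapped, with vismodegib library 4 below all 5 Ki67-negative libraries. The log2 difference was 0.21 against Ki67-positive nests (interval -0.08 to 0.51, edgeR adjusted p = 0.291) and 0.15 against Ki67-negative nests (interval -0.15 to 0.44, adjusted p = 0.456). The highest upper bound for Axin1, 0.51, lay below the lowest lower bound for Axin2, 1.59.

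The ratio of Axin2 to Axin1 counts sets the paralogues against each other within 1 library, which removes the scaling between libraries. Axin2 had 2.8 to 3.84 reads for each Axin1 read in vismodegib libraries, 0.521 to 1.47 in Ki67-negative libraries and 0.745 to 1.05 in Ki67-positive libraries. Each vismodegib library exceeded each untreated one. The mean log2 ratio was 1.78 ± 0.18 in vismodegib, -0.25 ± 0.56 in Ki67-negative and -0.22 ± 0.25 in Ki67-positive nests (SD, n = 5 each). The difference was 2.0 against Ki67-positive and 2.03 against Ki67-negative nests, each with p = 0.00794 in a two-sided exact permutation test, the smallest p that 5 against 5 allows (0.0119 adjusted over the 3 comparisons). Between Ki67-negative and Ki67-positive nests it was -0.03 (exact permutation p = 0.897). Leaving out the Ki67-negative library with the lowest ratio, library 3, turned the last value to 0.14. The read ratio also depends on the lengths of both genes, and a change of it shows unequal change, not that either gene stayed level.

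**Figure D2:**
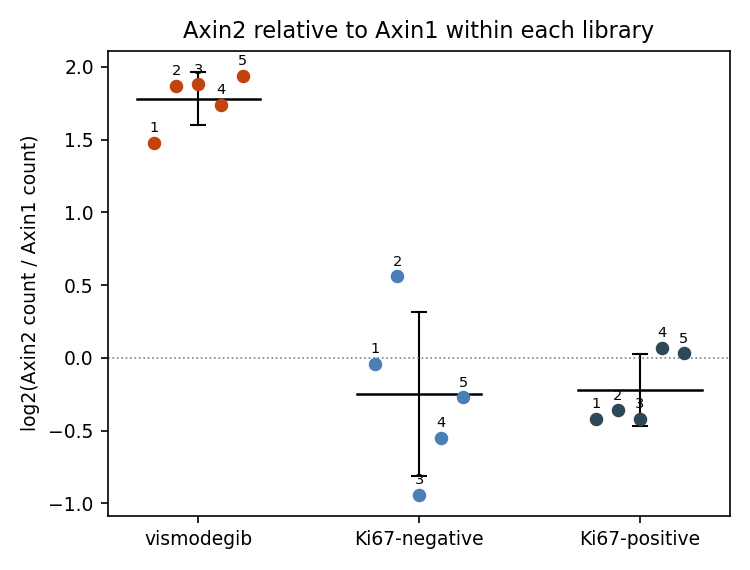
Log2 ratio of Axin2 to Axin1 read counts in each library, with group means (lines) and SD (bars, n = 5). The vismodegib libraries lie between 1.48 and 1.94, and the highest untreated library, Ki67-negative 2, lies at 0.56.

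Nkd1, an antagonist of Dishevelled and a common reporter of Wnt activity in the intestine, moved the other way. The gene (identifier 93960) lies on chromosome 8 from 88521342 to 88594887. It was low throughout, at 5.55, 1.27, 6.04, 9.97 and 4.58 CPM in vismodegib libraries, the second of which rests on 8 reads. It stood at 18.1, 13.6, 8.68, 10.7 and 10.6 CPM in Ki67-negative and at 6.76, 9.33, 9.86, 10.2 and 11.9 CPM in Ki67-positive libraries. Vismodegib library 4 fell within both untreated ranges, and the other 4 vismodegib libraries were below all untreated ones. Nkd1 averaged 5.48 ± 3.12 CPM in vismodegib, 12.3 ± 3.65 CPM in Ki67-negative and 9.61 ± 1.87 CPM in Ki67-positive nests (SD, n = 5 each). It fell to 0.447 of its level in Ki67-negative nests (log2 -1.16, SE 0.371, interval -1.94 to -0.38, edgeR adjusted p = 0.0234). The log2 difference from Ki67-positive nests was -0.80 (SE 0.371, interval -1.58 to -0.02, edgeR adjusted p = 0.124). The call rested on single libraries: without vismodegib library 5 the adjusted p was 0.0535 and without Ki67-negative library 1 it was 0.0626, while without vismodegib library 4 the difference from Ki67-positive nests also passed (log2 -1.12, edgeR adjusted p = 0.0339). Fitting only the 2 groups compared gave log2 -1.15 against Ki67-negative nests, with an edgeR adjusted p of 0.0537.

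Nkd2 is the paralogue of Nkd1 and likewise binds Dishevelled. The gene (identifier 72293) lies on chromosome 13 from 73818534 to 73847631. Its level was 20.5, 14.7, 19.9, 22.7 and 23.8 CPM in vismodegib libraries. It was 24.0, 29.0, 20.4, 31.9 and 24.4 CPM in Ki67-negative and 27.2, 13.8, 20.3, 20.8 and 31.1 CPM in Ki67-positive libraries. All 3 groups overlapped. The log2 difference was -0.15 against Ki67-positive nests (interval -0.6 to 0.3, edgeR adjusted p = 0.649) and -0.35 against Ki67-negative nests (interval -0.8 to 0.1, adjusted p = 0.223).

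**Figure D3:**
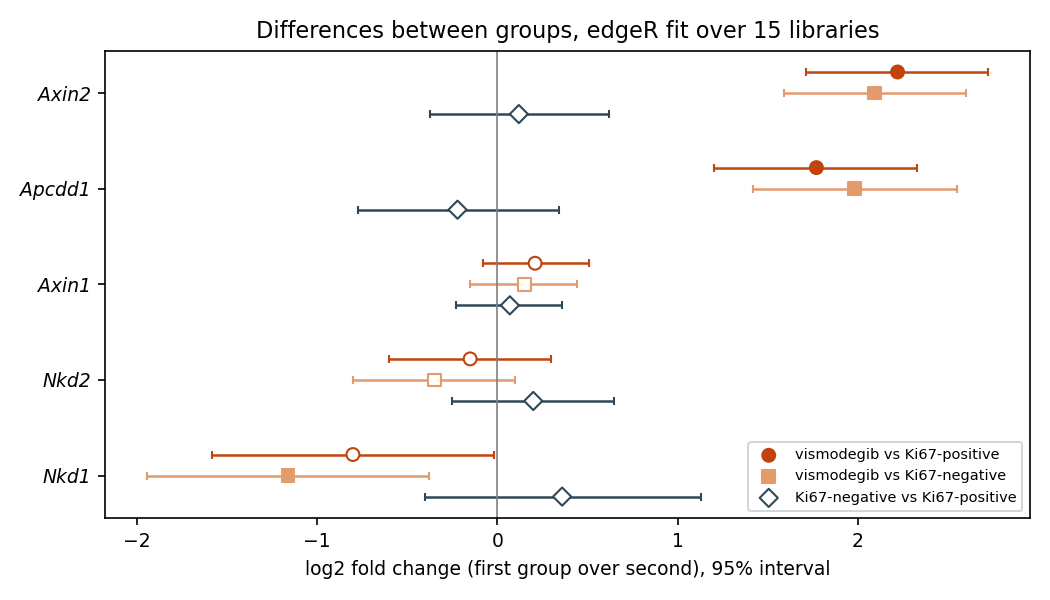
Log2 fold change (first-named group over the second) of the 5 tested feedback genes with 95% intervals from edgeR. Filled symbols have an adjusted p under 0.05 over all genes. Axin2 and Apcdd1 lie between 1.77 and 2.22 with vismodegib, and every interval for Ki67-negative against Ki67-positive nests spans 0.

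Within groups Nkd2 was higher in libraries with more reads of fibroblast genes, and also of several other cell types. For Nkd1 the relation with fibroblast genes rested on 1 library. The summed level of 10 fibroblast markers ran from 479.0 to 3647.3 CPM in vismodegib, from 2640.0 to 4906.4 CPM in Ki67-negative and from 1808.3 to 6118.7 CPM in Ki67-positive libraries. Of the 10, 4 fell against Ki67-negative and 3 against Ki67-positive nests, where 16.5% and 13.4% of all tested genes fell. Vismodegib library 2, with the lowest marker sum, also had the lowest Nkd1 of all 15 libraries and the lowest Nkd2 of its group. In deviations from group means over the 15 libraries, the log2 fibroblast sum had a Pearson r of 0.63 with Nkd1, 0.77 with Nkd2, 0.53 with Apcdd1, 0.03 with Axin2 and -0.68 with Axin1. Without vismodegib library 2, a choice made after seeing the data, it was 0.12 with Nkd1, 0.73 with Nkd2, 0.49 with Apcdd1, 0.33 with Axin2 and -0.55 with Axin1. For 6 markers of the dermal papilla, the signalling centre of the follicle, r was 0.75 with Nkd1, 0.81 with Nkd2, 0.67 with Apcdd1, -0.08 with Axin2 and -0.75 with Axin1. Without vismodegib library 2 the value for Nkd1 was 0.49. Their sum was 4.59 to 32.7 CPM in vismodegib, 31.7 to 66.9 CPM in Ki67-negative and 27.3 to 75.5 CPM in Ki67-positive libraries, with Rspo2 at 0 in all libraries. Of the 4 tested, 2 fell against Ki67-negative and 1 against Ki67-positive nests, beside the same 16.5% and 13.4% of all genes. Within groups r of Nkd2 was also 0.69 with markers of differentiated epidermis and 0.59 with those of dendritic and Langerhans cells. It was 0.48 with T cell, 0.45 with endothelial, 0.3 with basal, -0.3 with melanocyte and -0.44 with pericyte and smooth muscle markers. For Nkd1 these values ran from -0.49 (pericyte and smooth muscle) to 0.32 (differentiated epidermis). The part of stroma in the fall of Nkd1 was not tested.

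**Figure D4:**
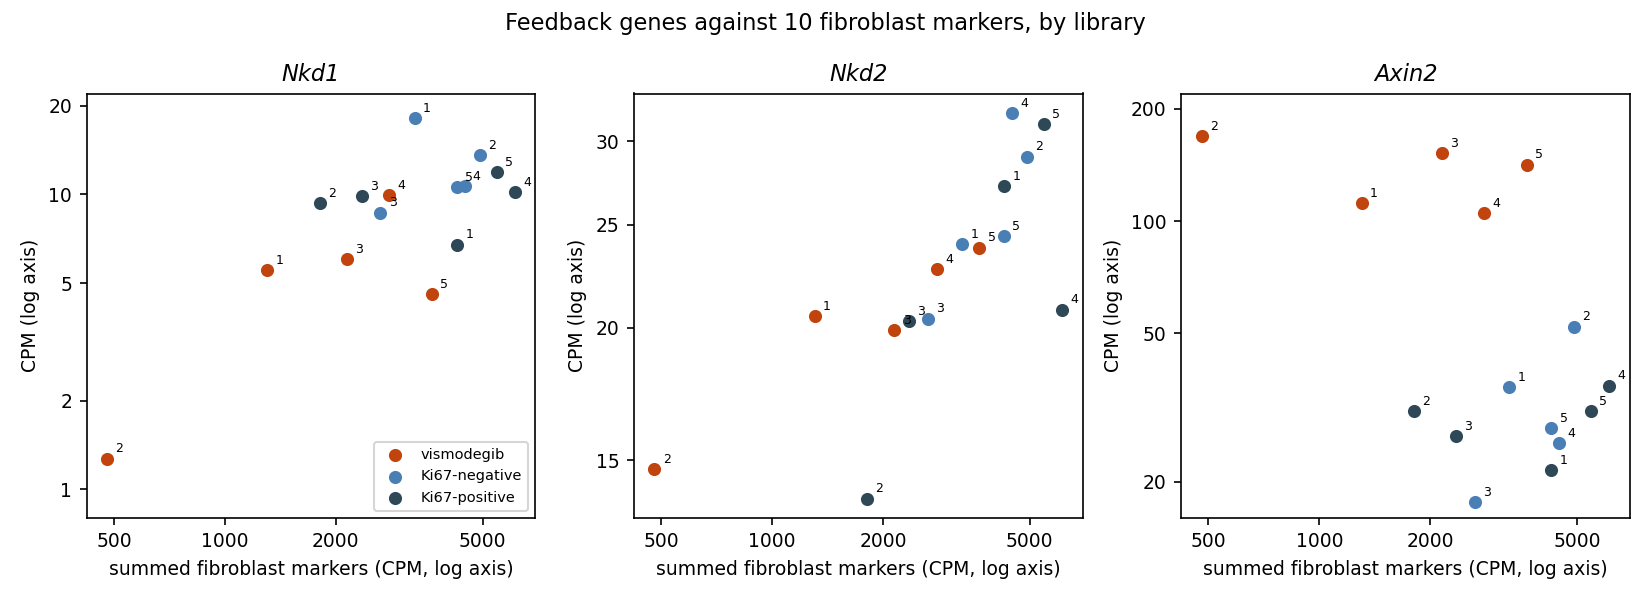
CPM of Nkd1, Nkd2 and Axin2 against the summed CPM of 10 fibroblast markers in each library (both axes log scaled, points numbered by library within a group). Vismodegib library 2, at 479.0 CPM of markers, has the lowest Nkd1 at 1.27 CPM and the highest Axin2 at 169.0 CPM.

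Markers of several cell types, basal keratinocytes among them, were higher in vismodegib nests, as Axin2 and Apcdd1 were. For the counts that follow, 15.4% of all tested genes rose and 16.5% fell against Ki67-negative nests. Against Ki67-positive nests 12.6% rose and 13.4% fell. The summed level of 6 markers of differentiated epidermis was 2898.9 to 3713.7 CPM in vismodegib, 52.5 to 169.9 CPM in Ki67-negative and 55.6 to 321.9 CPM in Ki67-positive libraries, and 6 of 6 rose against each. The 6 basal keratinocyte and follicle markers summed to 12183.8 to 15762.8 CPM in vismodegib, 4989.8 to 8510.5 CPM in Ki67-negative and 6751.0 to 8369.0 CPM in Ki67-positive libraries. Against each untreated group 4 of the 6 rose, and against Ki67-positive nests 1 fell. The 6 markers of dendritic and Langerhans cells summed to 710.7 to 2342.0 CPM in vismodegib, 133.7 to 464.7 CPM in Ki67-negative and 99.8 to 479.6 CPM in Ki67-positive libraries, and 5 and 6 of them rose against Ki67-negative and Ki67-positive nests. The sums of epidermal and of dendritic markers thus separated vismodegib from untreated libraries without overlap. Gene by gene, all 5 vismodegib libraries stood above those of each untreated group for 6 of 6 differentiated and 4 of 6 basal markers. Of the 6 dendritic markers, 3 did so against Ki67-negative and 4 against Ki67-positive nests, as 10.4% and 10.2% of all genes did. In deviations from group means, r with the differentiated sum was 0.42 for Axin2 and 0.48 for Apcdd1. In the same order it was 0.45 and 0.04 with the basal sum and 0.25 and 0.19 with the dendritic sum. The 4 T cell markers summed to 33.1 to 94.9 CPM in vismodegib, 6.94 to 43.0 CPM in Ki67-negative and 10.6 to 32.2 CPM in Ki67-positive libraries. Markers of pericytes and smooth muscle summed to 134.4 to 248.6 CPM in vismodegib, 684.0 to 1078.6 CPM in Ki67-negative and 613.6 to 956.6 CPM in Ki67-positive libraries. Of the 6, 4 fell against each untreated group. The other 2, Rgs5 and Notch3, did not pass and had positive log2 differences. Against Ki67-negative and Ki67-positive nests these were 0.09 and 0.17 for Rgs5 and 0.63 and 0.72 for Notch3. Cspg4 made up much of the sum, averaging 66.7 CPM in vismodegib, 551.9 CPM in Ki67-negative and 439.3 CPM in Ki67-positive nests. Those of melanocytes summed to 54.6 to 321.9 CPM in vismodegib, 151.0 to 1143.9 CPM in Ki67-negative and 294.4 to 1461.8 CPM in Ki67-positive libraries. In deviations from group means, r with the T cell sum was 0.05 for Axin2 and 0.02 for Apcdd1. With the pericyte and smooth muscle sum it was 0.31 and -0.66, and with the melanocyte sum 0.45 and 0.29. The part of any of these cell types in the differences of Axin2 and Apcdd1 was not tested.

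Notum, the secreted carboxylesterase that strips palmitoleate from Wnt ligands, was almost unread. The gene (identifier 77583) lies on chromosome 11 from 120653788 to 120661193. It had 1, 0, 4, 17 and 3 reads in vismodegib libraries, 0, 1, 1, 5 and 0 reads in Ki67-negative libraries and 0, 1, 4, 5 and 4 reads in Ki67-positive libraries. Vismodegib library 4 alone held 17 of the 25 vismodegib reads. The ratio of summed counts, scaled to depth and with exact intervals for counting error only, was 2.9 (1.22 to 7.95) for vismodegib over Ki67-negative nests, 1.18 (0.374 to 3.82) without that library, and 8.02 (2.0 to 69.9) without Ki67-negative library 4, which held 5 of the 7 Ki67-negative reads. Over Ki67-positive nests it was 1.6 (0.803 to 3.34), and 0.652 (0.237 to 1.66) without vismodegib library 4. In a fit without the filter no comparison of Notum passed (edgeR adjusted p of 0.411 and 0.759 for vismodegib against Ki67-negative and Ki67-positive nests). Its exons overlap the antisense genes Notumos and Myadml2os, from which its reads cannot be told apart here.

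Sp5, a transcription factor of the Sp family and the member whose window holds CTTTGAT, was as low. The gene (identifier 64406) lies on chromosome 2 from 70474923 to 70477726. It had 10, 0, 3, 4 and 6 reads in vismodegib libraries, 1, 0, 0, 3 and 7 reads in Ki67-negative libraries and 1, 0, 2, 2 and 0 reads in Ki67-positive libraries. The groups overlapped, and at least 1 library of each had none. The ratio of vismodegib over Ki67-positive nests was 4.13 (1.54 to 13.9), and 2.81 (0.939 to 10.1) without vismodegib library 1. Over Ki67-negative nests it was 1.7 (0.796 to 3.86), 1.15 (0.477 to 2.84) without vismodegib library 1 and 3.68 (1.26 to 14.6) without Ki67-negative library 5. Without the filter the edgeR adjusted p was 0.249 against Ki67-positive and 0.623 against Ki67-negative nests. A change in Notum or Sp5 beyond the spread between libraries was not detectable at this depth.

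Levels per gene length are given by the deposited RPKM values (reads scaled to gene length and depth, divided by a size factor per library). In vismodegib nests Apcdd1 was highest at 21.2 RPKM (15.5 to 29.9 over libraries), followed by Axin2 at 7.14 (5.63 to 8.84), Axin1 at 2.5 (2.05 to 2.93), Nkd2 at 1.38 (0.996 to 1.61) and Nkd1 at 0.338 (0.0773 to 0.623). The ranges of these neighbours did not overlap. Sp5 and Notum followed at 0.081 and 0.0587 RPKM, and their ranges overlapped with each other and with that of Nkd1. The order was another in untreated nests. In Ki67-negative nests Apcdd1 led at 5.42 RPKM (2.94 to 9.11), then Axin1 at 2.3 (2.22 to 2.38), Nkd2 at 1.79 (1.45 to 2.18), Axin2 at 1.69 (0.961 to 2.75) and Nkd1 at 0.768 (0.555 to 1.11). In Ki67-positive nests Apcdd1 stood at 6.27 RPKM (4.11 to 8.25), Axin1 at 2.18 (1.86 to 2.59), Nkd2 at 1.56 (0.96 to 2.16), Axin2 at 1.55 (1.14 to 1.91) and Nkd1 at 0.596 (0.418 to 0.747). Axin2 thus ranked next to Apcdd1 in vismodegib nests and behind Axin1 and Nkd2 in both untreated groups. There its range overlapped that of Nkd2, in Ki67-negative nests also those of Axin1 and Nkd1, and in Ki67-positive nests that of Axin1.

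Of the machinery around the feedback genes, the destruction complex and the transducers were called about as often as all genes. Against Ki67-positive nests 1 of 23 tested genes rose and 5 fell, where 26% of all genes were called, with a median log2 fold change of 0.00, against -0.02 over all genes. Against Ki67-negative nests 2 rose and 5 fell, where 31.9% of all genes were called, with a median of -0.04 against -0.03 over all genes. Apc2, a homologue of the scaffold Apc, fell to 3.89 ± 1.22 CPM in vismodegib nests, against 11.5 ± 3.06 CPM in Ki67-negative and 10.5 ± 4.24 CPM in Ki67-positive nests (SD, n = 5 each; log2 -1.57 against Ki67-negative and -1.43 against Ki67-positive nests, the order also used next). The Dishevelled gene Dvl2, whose protein Nkd1 and Nkd2 bind, averaged 12.9 ± 1.69 CPM in vismodegib, 22.7 ± 8.06 CPM in Ki67-negative and 22.1 ± 3.95 CPM in Ki67-positive nests and fell against both (log2 -0.82 and -0.78). Casein kinase 1 epsilon (Csnk1e; log2 -0.52 and -0.39), and the tankyrase Tnks2 (-0.39 and -0.42), which marks Axin for degradation, also fell against Ki67-negative and Ki67-positive nests. In the comparison with Ki67-negative nests Ctnnbip1, which keeps beta-catenin from Tcf, rose by 0.74 on the log2 scale.

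The other Wnt response genes held members that rose and members that fell. Of 14 listed, 12 were tested, Dkk1 and Dkk4 having failed the filter. Of the 12, 3 rose and 3 fell with vismodegib in either comparison. Of all tested genes 12.6% rose and 13.4% fell against Ki67-positive nests, and 15.4% rose and 16.5% fell against Ki67-negative nests. The median log2 fold change was 0.10 against Ki67-positive and -0.07 against Ki67-negative nests, where that over all genes was -0.02 and -0.03. Tnfrsf19, a receptor of the tumour necrosis factor family, averaged 197.1 ± 42.4 CPM in vismodegib, 13.2 ± 3.83 CPM in Ki67-negative and 16.3 ± 5.46 CPM in Ki67-positive nests (log2 3.90 and 3.59). Rnf43, a ubiquitin ligase that removes Frizzled and so restrains Wnt reception, averaged 79.1 ± 12.9 CPM in vismodegib, 35.7 ± 11.5 CPM in Ki67-negative and 37.8 ± 5.02 CPM in Ki67-positive nests (log2 1.15 and 1.07). Its homologue Znrf3 did not pass (log2 0.48 and 0.42, edgeR adjusted p of 0.076 and 0.138). Lef1, the Tcf family factor, fell to 9.8 ± 2.88 CPM in vismodegib nests, against 49.6 ± 9.74 CPM in Ki67-negative and 37.5 ± 10.9 CPM in Ki67-positive nests (SD, n = 5 each; log2 -2.34 and -1.93). Wif1, a secreted Wnt antagonist, averaged 41.4 ± 42.7 CPM in vismodegib, 294.2 ± 87.8 CPM in Ki67-negative and 197.6 ± 35.0 CPM in Ki67-positive nests (log2 -2.82 and -2.25). Ascl2 was among those that rose (log2 2.64 and 2.88) and Sox9 among those that fell (-0.67 and -0.97).

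Among 3 genes of Wnt acylation and release, Porcn, which attaches the lipid that Notum removes, averaged 27.7 ± 6.97 CPM in vismodegib, 185.6 ± 113.3 CPM in Ki67-negative and 100.1 ± 60.5 CPM in Ki67-positive nests and fell against both (log2 -2.74 and -1.85). Trabd2b, a protease that cleaves Wnt and is, like Notum, an antagonist of the ligand, fell to 7.39 ± 2.7 CPM in vismodegib nests, against 112.9 ± 30.2 CPM in Ki67-negative and 95.2 ± 43.5 CPM in Ki67-positive nests (log2 -3.92 and -3.67). Wls, the carrier of Wnt to the cell surface, rose against Ki67-negative nests (log2 0.66, edgeR adjusted p = 0.00972) and did not pass against Ki67-positive nests (0.45, adjusted p = 0.0763).

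**Figure D5:**
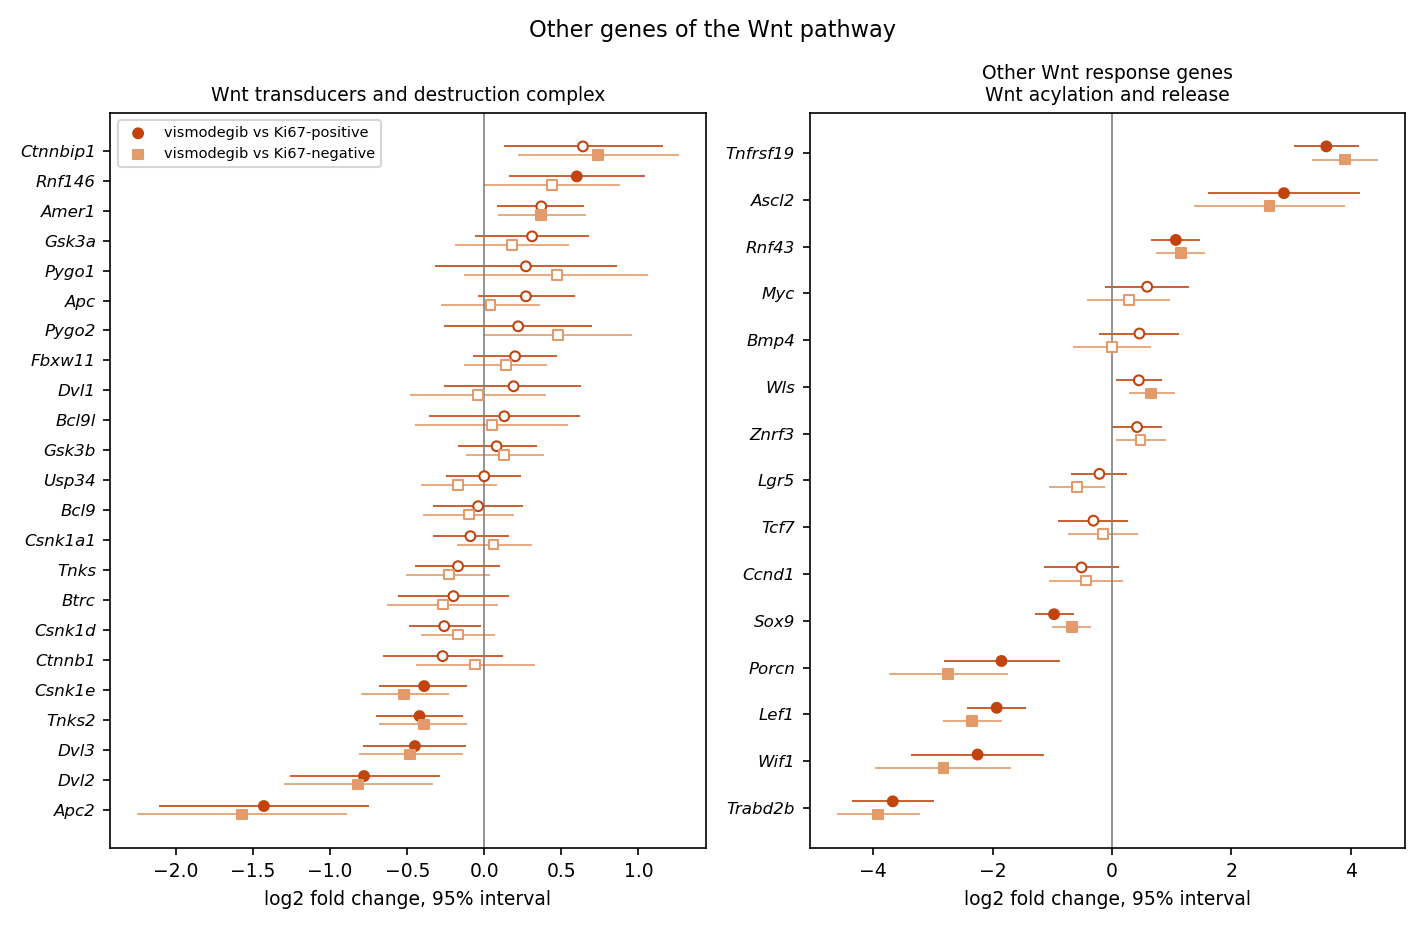
Log2 fold change with 95% interval for the other Wnt pathway genes that were tested, transducers and destruction complex on the left and response, acylation and release genes on the right, for vismodegib against each untreated group. Filled symbols have an edgeR adjusted p under 0.05. Most genes on the left lie near 0, while those on the right run from -3.92 for Trabd2b to 3.90 for Tnfrsf19.

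In the comparison of Ki67-negative with Ki67-positive nests, 0 of the 5 tested feedback genes were called, where 0.174% of all genes were called. No feedback gene had all 5 libraries of 1 group above (0.33% of all genes) or below (0.845%) those of the other. None of the 5 reached an unadjusted p under 0.05 in edgeR, and neither DESeq2 nor limma voom called any. The log2 differences were 0.12 for Axin2, -0.22 for Apcdd1 (interval -0.77 to 0.34, edgeR adjusted p = 0.921), 0.36 for Nkd1 (-0.4 to 1.13, adjusted p = 0.898), 0.20 for Nkd2 (-0.25 to 0.65, adjusted p = 0.907) and 0.07 for Axin1 (-0.23 to 0.36, adjusted p = 0.959). None of the transducers, response genes or acylation genes was called either. The Ki67-negative libraries have later accession numbers than the others. Their sample numbers lie between those of most Ki67-positive libraries and those of the vismodegib libraries, and the labels name no batch.

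Among the 3 genes whose log2 CPM ran most like that of Axin2 over the 15 libraries, out of 10393 candidates, were Cib2 (Pearson r 0.98) and Net1 (0.95). In deviations from group means, Cib2 had an r of 0.83 with Axin2 (0.7 without Ki67-negative library 2), after Phrf1 at 0.9 and Foxm1 at 0.85. Neither Phrf1 nor Foxm1 ran with Axin2 over all libraries (-0.06 and 0.23). Net1 had an r of only 0.52 within groups, and 0.26 without Ki67-negative library 3. The nearest genes to Apcdd1 were Lgals3 (0.96), Adh7 (0.96) and Maoa (0.95), each also near within groups (0.76 to 0.8). Nearest to Nkd1 were Colec12, Pdgfra (0.89 each, 0.72 and 0.73 without vismodegib library 2) and Fstl1 (0.88, and 0.64 without that library), of which Pdgfra encodes a growth factor receptor used as a fibroblast marker. Nkd2 ran with Eln (0.91), the gene for elastin, Crabp1 (0.87) and Dab2 (0.85), and Axin1 with Pex26 (0.84), Ppp1r13l (0.83) and C77080 (0.79). No gene was nearest to more than 1 member. These correlations describe 15 libraries that share preparation and, in groups, condition.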

How the data were processed

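Counts are reads aligned uniquely to each gene model, and the second value in each file is an RPKM divided by a library size factor, per the file headers. Reads were aligned with GSNAP to GRCm38, per the submitters' processing notes; no source used here gives versions, annotation release or use of strand. The deposited counts served all tests and the deposited RPKM values only the levels per length. Replicates carry no number in the labels and were numbered in accession order, and p-values may measure technical spread only. Within groups, libraries differed 14.33 to 46.8 times beyond sampling noise in a chi-square test, and none was a duplicate. Of 36528 identifiers, 31049 matched a symbol. The rest, with 2.26% to 3.93% of each library, were kept unnamed.

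All 15 libraries entered 1 fit of edgeR 4.0.16 (R 4.3.3; quasi-likelihood F test, robust, TMM factors 0.937 to 1.05, filterByExpr with a minimum count of 10 and total of 15, 12 residual degrees of freedom, common coefficient of variation 0.348), with Benjamini-Hochberg adjustment. CPM uses TMM-scaled library sizes. Correlations use log2 CPM with a prior count of 2, and the Axin ratio a pseudocount of 0.5. Alternatives were DESeq2 1.42.0, limma 3.58.1 voom, size factors, other filters, fits of 2 groups, an Xist covariate and leaving out each library. Sequences and motifs come from RefSeq, overlaps from GENCODE. Members and lists were chosen with earlier results of these data known. Named from each list are at most the 4 called genes with the smallest adjusted p. Dkk1, Dkk4, Znrf3, Ascl2, Rgs5 and Notch3 were added after their values were seen. Like genes were the 3 of highest r with an average log2 CPM of at least 3, leaving out predicted genes. A gene that this rule names is not reported here.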

Additional observations from a re-analysis of the deposited data

Results flagged for a closer look

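Vismodegib library 4 had 2.07 CPM of Notum, far above the other 4 of its group, whose highest was 0.396 CPM. Ki67-negative library 4 had 0.755 CPM of Notum, against at most 0.202 CPM in the other 4. In each case the gap to the nearest library exceeded the 95% critical value of Dixon's test for 5 libraries (0.71). The flags rest on 17 and 5 reads. Of 24 sets of 5 libraries examined 2 were flagged. Chance flags about 1 in 20 where values are normally distributed, a rate that need not hold for counts this low.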

How the results depend on the processing

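Axin2 and Apcdd1 stayed called against both untreated groups under all alternatives. The log2 fold change of Axin2 lay between 2.06 and 2.23 in other fits and between 1.95 and 2.35 with a library left out, and that of Apcdd1 between 1.77 and 2.15 and between 1.63 and 2.26. Axin1 and Nkd2 were called in none. Nkd1 lost or gained a call as given above. The number of genes changed between Ki67-negative and Ki67-positive nests, 30, was 88 with DESeq2, 15 with limma voom, 0 in a fit of only these groups, and 0 to 43 with a library left out. It was 0 without Ki67-negative library 3, 4 or 5 or Ki67-positive library 4, 2 without Ki67-positive library 5 and 12 without Ki67-negative library 2. Between these groups the Axin2 difference ran from -0.13 (without Ki67-negative library 2) to 0.27 and the Axin2 to Axin1 log2 ratio from -0.23 to 0.14, turning positive without Ki67-negative library 3 or 4 (0.14 and 0.05) or Ki67-positive library 4 or 5 (0.05 and 0.03). The cause was not tested. No paired analysis was possible because the labels give no replicate numbers. Depth limits Notum and Sp5, each under 30 reads per group.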
